A study of Mus musculus with 6 samples.

Results

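The miR-297, miR-466, miR-467 and miR-669 families are groups of near-identical rodent miRNAs, many of them encoded in a cluster within the gene Sfmbt2. Their exosomal signal was examined as every mouse miRNA on the array named miR-297, miR-466, miR-467 or miR-669, with any letter, copy or arm after the number. This rule uses names only and gave 61 miRNAs of the 1881 on the array: 3 of miR-297, 23 of miR-466, 12 of miR-467 and 23 of miR-669. The series measured exosomes, small vesicles released by cells, from RAW 264.7, a mouse macrophage line. The 3 LPS samples came from supernatant taken 72 h after 2 µg/mL lipopolysaccharide (LPS), a part of the outer membrane of Gram-negative bacteria that macrophages sense with the receptor TLR4. The 3 control samples came from cells without LPS, and their labels record no time. Both groups carry no other treatment or genotype in the labels. Nothing says that the 3 samples of a group came from separate cultures, so p-values measure only the spread between these samples. Each sample was read on a one-colour Agilent mouse miRNA array, and the number of arrays limits the precision.

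miRNAs are short RNAs that guide Argonaute proteins to messenger RNAs, mainly through the seed, bases 2 to 8 from the 5′ end. The Sfmbt2 cluster lies in an intron of a gene that is imprinted and expressed from the paternal copy in the mouse placenta, and it grew by local duplication in rodents. Many of its miRNAs are rich in alternating U and G or C and A, with a UG-rich arm paired to a CA-rich arm in the hairpin. A probe for a CA-rich miRNA is therefore a GT repeat, and a probe for a UG-rich miRNA is a CA repeat.

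By the mouse gene table, 49 of the 61 members had all their genes within Sfmbt2, 3 had genes both within it and elsewhere, 8 had genes elsewhere only, and 1 matched no gene. Of the 79 member genes, 70 lay within Sfmbt2. The label of a Sfmbt2 cluster thus held for most members. Of the 11 detected members, 5 had all their genes within Sfmbt2 (miR-466g, miR-466h-3p, miR-669c-3p, miR-669f-3p and miR-669p-3p), miR-466f-3p had both kinds, and 5 had genes elsewhere only (miR-466i-3p, miR-466i-5p, miR-466q, miR-467f and miR-669n).

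The members were covered by 162 probes of 13 to 23 bases, each printed on 7 to 30 spots. No probe sequence was shared by any 2 miRNAs. The probes of 11 members nevertheless listed 16 other miRNA names in the files: the probe of miR-669n also lists miR-669c-5p, and that of miR-669f-3p also lists miR-669a-3p and miR-669o-3p. The brightest probe of each of the 9 members detected in LPS only is printed first, as stored in the files, because these 9 share a feature that the rule did not use. Capitals mark the longest unbroken alternation of G and T.

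miR-467f: tgtagGTGTGTGTGTGT
miR-466q: acgtaTGTGTGTGTGTG
miR-466h-3p: GTGTGTGTGTGcgt
miR-466f-3p: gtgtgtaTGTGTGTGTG
miR-669p-3p: atacGTGTGTGTGTGTat
miR-466i-3p: tagtgtgtaTGTGTGTGTG
miR-669c-3p: tttactTGTGTGTGTGTG
miR-669f-3p: atacGTGTGTGTGTatgt
miR-466g: TGTGTGTGcatgtgt

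The probe of miR-466f-3p is contained whole in that of miR-466i-3p, and the complement of its letters occurs in the mature miR-466i-3p of RefSeq. The shorter probe would thus match both miRNAs. The next lines give the probes of the 2 members detected on all 6 arrays, followed by 2 miRNAs outside the families with similar repeats, miR-574-5p and miR-1187. Capitals mark the longest alternation of C and A.

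miR-466i-5p: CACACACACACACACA
miR-669n: acacacatcCACACACA
miR-574-5p: acacactCACACACACAC
miR-1187: ttacacacatACACACACA

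The probe of miR-466i-5p held no base outside the CA alternation. For comparison, 4 undetected members, 1 from each family and chosen after their values were seen, are given with their longest GT or CA alternation in capitals.

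miR-297b-5p: acatgttcatgCACACAta
miR-466f-5p: catgcacatgCACACA
miR-467e-3p: atatagGTGTGTGTatgtata
miR-669a-5p: agacatgaacatgCACA

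RefSeq held a mature sequence under the array's name for 7 of the 61 members, 4 of them detected. Here the seed is in capitals, and the letters are those of the table for assembly GRCm38.p6.

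miR-466i-3p: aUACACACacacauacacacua
miR-466q: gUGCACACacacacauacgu
miR-467f: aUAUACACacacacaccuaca
miR-669n: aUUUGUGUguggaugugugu

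No 2 of these 4 shared a seed. The probes printed above cover bases 4 to 22 of miR-466i-3p, 4 to 20 of miR-466q, 5 to 21 of miR-467f and 4 to 20 of miR-669n. The first bases of each seed thus lay outside the probe. The files give single mm9 positions for 4 detected members, each spanning 1 base less than the probe: chr13:17839390-17839407 for miR-466i-3p, chr2:10430991-10431007 for miR-669c-3p, chr2:10388918-10388934 for miR-669f-3p and chr2:10430952-10430967 for miR-669n. The position of miR-669n lies just before that of miR-669c-3p, on the chromosome of the Sfmbt2 cluster. The RefSeq mature of miR-669n lies on chromosome 3, so the array and RefSeq place it differently. Its probe also lists miR-669c-5p, and which of these miRNAs gave the signal was not tested.

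Facts of the whole series bear on every comparison here. The LPS arrays carried more signal: 412 to 446 miRNAs were detected on them against 213 to 228 on the control arrays, by the detection flag in the files. For the miRNAs found on all arrays, the control arrays had a 75th percentile of signal of 477 ± 41.0 (SD, n = 3). The LPS arrays had one of 2229 ± 180 (SD, n = 3), which is 4.67 times that of the control arrays. The geometric mean signal of the spiked-in RNAs was 2707 in control and 2377 in LPS, a ratio of 0.878. Of 5 myeloid miRNAs, 4 were detected on all 6 arrays and miR-142a-5p in LPS only, and of 4 erythroid and serum miRNAs none was detected. Dividing each array by its 75th percentile, the scaling used here, therefore divides the LPS arrays by the larger number, and a change on this scale is a change relative to the other miRNAs of the exosomes. All control arrays and the first LPS array lay in row 1 of the slide, and the other LPS arrays in row 2.

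Detection answered first how much of the families the exosomes yielded. On each control array 2 members were detected, and on each LPS array 11, with no overlap between groups. The difference of 9 had p = 0.1 in an exact permutation test (two-sided), and 3 arrays against 3 allow no smaller p. The same 2 members, miR-466i-5p and miR-669n, made up the control count. Of the 61 members, 9 (14.8%) were detected on 3 LPS arrays and no control array, against 9.94% of all 1881 miRNAs. Detection on all 6 arrays held for 2 members (3.28%) against 10.5% of all miRNAs, and detection on at least 1 array for 11 members (18.0%) against 24.7%. The first of these shares lay above that of the array and the others below it, each by few miRNAs. Members with like probes are not independent, so the shares describe these lists and no result about the families is read from them.

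By family, none of the 3 miR-297 members, 6 of 23 miR-466, 1 of 12 miR-467 and 4 of 23 miR-669 were detected. By arm, 6 of the 26 members named 3p were detected, all in LPS only, and 1 of the 25 named 5p, miR-466i-5p. The 10 members with no arm in their name gave the other 4, miR-466g, miR-466q and miR-467f in LPS only and miR-669n on all 6 arrays. By place, 5 of 49 members with all genes within Sfmbt2 were detected, and 5 of 8 with genes elsewhere only. These counts go by name, and miR-669n, counted as elsewhere, has a probe that also lists miR-669c-5p. The 50 undetected members had mean unscaled signals of -4.14 to 17.5 (median 6.32) in control and -3.21 to 17.1 (median 4.32) in LPS, where values below 0 come from the background subtraction. In both groups these mean signals lay under the lowest signal well above background on any array, which was 26.3 to 35.8.

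Detection of members with GT probes went mostly with the repeat length, and that of members with CA probes less so. All 8 members with a GT run of 10 or more bases in a probe were detected in LPS only. Of the 9 members with a run of 8 or 9 bases, miR-466g alone was detected, with a run of 8. The runs of miR-467g and miR-669a-3-3p were 9, and neither was detected. Of the 12 members with a run of 6 or 7 bases none was detected. Outside the families, 3 of 11 miRNAs with such a run were detected, all in LPS only. Of the 6 members with a CA run of 8 or more bases, miR-466i-5p and miR-669n were detected, both on all 6 arrays. The run of miR-669n was 8, while miR-466a-5p and miR-466p-5p had runs of 9 and were not detected. Of the 38 members with neither run, none was detected, whereas 391 of 1813 other miRNAs with neither run (21.6%) were detected on the 3 LPS arrays. The run lengths were chosen after the values were seen, members with like probes are not independent, and these counts have no test. No miRNA outside the families had a GT run of 8 or more in a probe, so repeat length and family cannot be told apart for the GT probes. Whether RNA other than the named miRNA bound these probes was not tested.

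**Figure D1:**
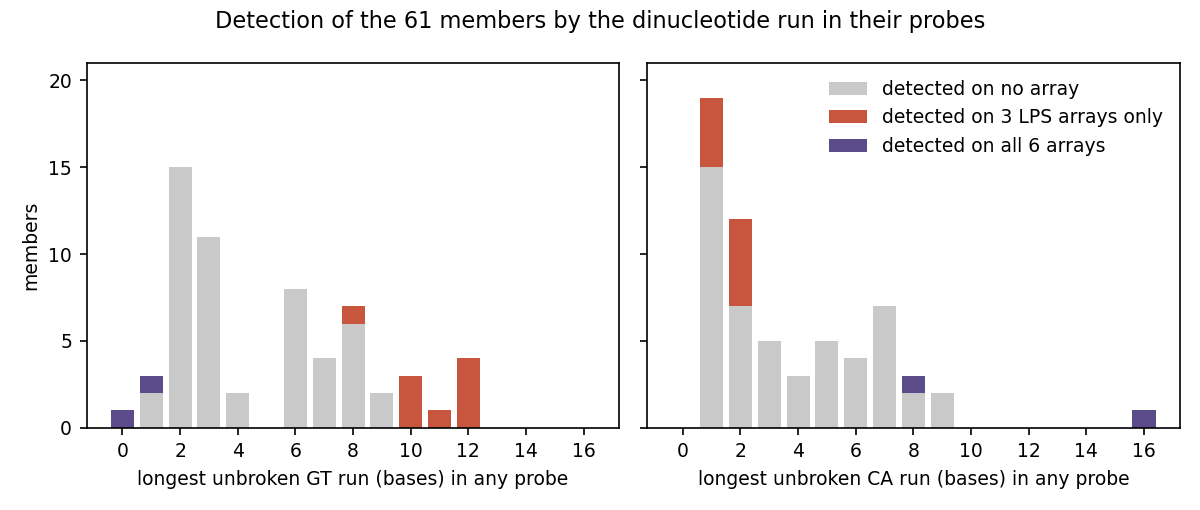
Number of members (y axis, of 61) by the longest unbroken GT run (left) or CA run (right) in any of their probes (x axis, bases), coloured by detection. The 8 members with a GT run of 10 or more are all detected on the 3 LPS arrays only, and the 2 members detected on all 6 arrays have CA runs of 8 and 16 bases.

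The members fell into 2 groups in LPS against control, a comparison that asks which exosomal miRNAs differ after LPS. All 11 detected members passed limma's test at an adjusted p below 0.05: 9 were called higher and 2 lower, and under normexp background correction 5 of the 9 were called lower and 3 were not called. The 9 entered the test only because they were detected in LPS, with control values at or near the floor. In the main processing the filter and the floor thus largely fixed their direction, and their p-values are no support for it. Over the 412 miRNAs tested, 65.5% were called higher, 26.7% lower and 92.2% either way, so that being called sets no member apart. The groups did not overlap for any of the 11 members, nor for 93.4% of all tested miRNAs. The fitted changes of these 9 are measured from a floor of 9.89 in scaled signal and are no estimate of a fold. The median log2 change over the 11 members, 2.61 against 0.85 over all tested miRNAs, rests on those values. Over the 2 members detected on all 6 arrays it was -2.71, against 0.77 over the 198 such miRNAs.

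The members called higher are those with GT probes. The unscaled signal of miR-467f was 5.12, 3.12 and 5.06 on the control arrays and 296, 335 and 352 on the LPS arrays. All LPS arrays were high and all control arrays near 0. Its log2 change was 3.80 (SE 0.083, limma adjusted p = 5.44e-08), and against the lowest signal well above background it was at least 2.17-fold higher in LPS. This bound takes the mean of the scaled LPS signals over the higher, on each control array, of the probe's own signal and the lowest signal well above background on that array.

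For miR-466q, the unscaled signal was 2.18, 2.00 and 3.76 in control and 235, 259 and 262 in LPS, with no overlap. The log2 change of 3.56 (SE 0.037, limma adjusted p = 4.71e-09) came with a bound of at least 1.67-fold higher. For miR-466h-3p, the unscaled signal was 2.81, 2.49 and 9.15 in control and 216, 269 and 285 in LPS. The third control array stood above the other controls and still far below every LPS array. The log2 change of miR-466h-3p was 3.26 (SE 0.27, limma adjusted p = 2.91e-05), with a bound of at least 1.69-fold higher.

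For miR-466f-3p, unscaled signals of 2.27, 1.58 and 2.11 in control stood against 147, 180 and 182 in LPS, with the first LPS array the lowest of its group. The log2 change was 2.98 (SE 0.042, limma adjusted p = 1.20e-08), with a bound of at least 1.12-fold higher. For miR-669p-3p, the unscaled signal was 8.10, 4.57 and 6.08 in control and 189, 223 and 224 in LPS. The groups lay wide apart, and here too the first LPS array was the lowest of its group. The log2 change of miR-669p-3p was 2.86 (SE 0.23, limma adjusted p = 2.78e-05), with a bound of at least 1.40-fold higher.

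The other 4 members detected in LPS only had no bound above 1, so that their direction relative to other miRNAs is not read from them. A bound above 1 need not exceed the change of a typical miRNA. The median log2 change over miRNAs detected on all 6 arrays was 0.77. On the log2 scale only the bound of miR-467f lay above this median, so the other bounds show no rise beyond it. The bounds above 1 belong to the main background subtraction. Under normexp, given below, miR-466f-3p was at -0.26 and miR-669p-3p at -0.14, and only miR-467f kept its call as higher. The unscaled signal of miR-466i-3p was 2.73, 1.25 and 3.42 in control and 108, 138 and 148 in LPS. That of miR-669c-3p was -0.387, -1.69 and 3.83 in control and 99.4, 123 and 130 in LPS. Both were well above background on all LPS arrays and on no control array.

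On the unscaled scale, miR-669f-3p was at -2.88, -1.88 and -0.310 in control and 30.5, 42.1 and 43.6 in LPS. The signal of miR-466g was -4.65, -5.09 and -5.28 in control and 34.0, 33.4 and 36.9 in LPS. These members lay nearest the background: miR-669f-3p was well above background on 2 of 3 LPS arrays and miR-466g on 1 of 3. The log2 changes were 2.61 for miR-466i-3p (limma adjusted p = 1.01e-07), 2.45 for miR-669c-3p (5.82e-08), 0.84 for miR-669f-3p (9.57e-05) and 0.70 for miR-466g (6.03e-05).

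Scaling to the spiked-in RNAs compares signal per array in place of signal relative to other miRNAs, and it gave bounds above 1 for all 9 LPS-only members. They ran from at least 1.23-fold higher for miR-466g to at least 11.6-fold higher for miR-467f. These bounds too use the main background subtraction and were not computed with normexp. Those of miR-466g and miR-669f-3p rest on LPS signals near the background and are weak. The bound was at least 8.91-fold for miR-466q, 9.02-fold for miR-466h-3p, 7.48-fold for miR-669p-3p, 5.98-fold for miR-466f-3p, 4.62-fold for miR-466i-3p, 4.13-fold for miR-669c-3p and 1.35-fold for miR-669f-3p. With this scaling the median log2 change over miRNAs detected on all 6 arrays was 3.18, against 0.77 in the main scaling. On the log2 scale only the bound of miR-467f lay above the median of 3.18.

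Normexp background correction with an offset of 50 gave other directions. Under it miR-466f-3p was at -0.26, miR-466g at -1.22, miR-466i-3p at -0.51, miR-669c-3p at -0.56, miR-669f-3p at -1.25 and miR-669p-3p at -0.14, while miR-466q was at 0.12 and miR-466h-3p at 0.10. Of these 8, miR-466q, miR-466h-3p and miR-669p-3p did not pass the test. The call of miR-467f as higher remained, at 0.39. Under normexp the median log2 change was -0.92 over the 412 tested miRNAs and 0.11 over the 198 detected on all 6 arrays. Among the 9, only miR-466g and miR-669f-3p lay below the first median, and only miR-467f and miR-466q above the second. With the slide row as a block, the 9 log2 changes ran from 0.65 for miR-669f-3p to 3.79 for miR-467f, and within row 1 alone, on the first LPS array and the 3 control arrays, from 0.67 to 3.82.

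The probes of one miRNA moved the same way, with 1 difference among them. Every probe of the 9 LPS-only members had a higher mean unscaled signal in LPS than in control. These members were grouped by their detection in LPS only, so this direction was largely set beforehand and is no separate support. Without scaling, the median log2 change over miRNAs detected on all 6 arrays was itself 2.99. For miR-466f-3p, the 17-base probe read 1.99 in control and 169.7 in LPS, the 16-base probe -1.34 and 89.0, the 15-base probe -4.18 and 26.4, and the 14-base probe -5.40 and 2.69. Only the 2 longer of these 4 probes were well above background in LPS, and they are the 2 with GT runs of 9 and 10 bases. Probe length and run rose together over these 4 probes, so they cannot be told apart here. The 4 probes of miR-669p-3p, all with a GT run of 12, were well above background on every LPS array, with LPS means of 191 to 212. Of the 4 probes of miR-466g, all with a GT run of 8, the 15-base probe passed on 1 LPS array and the others on none.

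**Figure D2:**
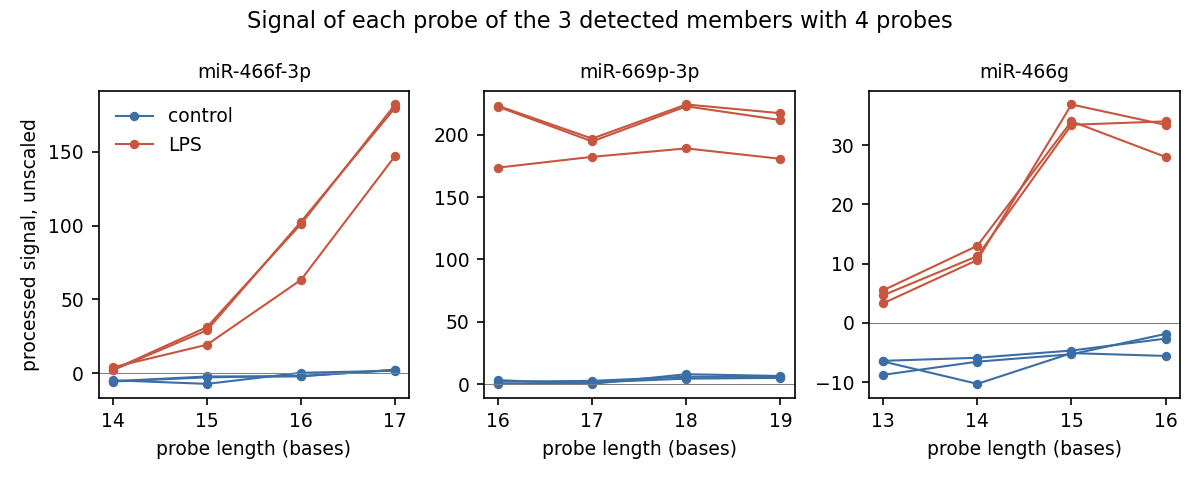
Unscaled processed signal (y axis) of each probe of the 3 detected members with 4 probes, by probe length (x axis, bases), with 1 line per array and a y scale of its own in each panel. The LPS lines lie above the control lines at every length, nearest for the shortest probe of miR-466f-3p, at 2.69 against -5.40 in the means.

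The 2 members with CA probes went the other way. The unscaled signal of miR-466i-5p was 2987, 3030 and 2941 in control and 1910, 2315 and 2235 in LPS. Every LPS array lay below every control array, and the first LPS array was the lowest. The ratio of the unscaled means was 0.721. After scaling, its log2 change was -2.70 (SE 0.069, limma adjusted p = 9.20e-08), a 6.50-fold lower level relative to the other miRNAs.

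For miR-669n, the unscaled signal was 100.04, 92.2 and 80.6 in control and 51.7, 72.3 and 70.1 in LPS. The groups did not overlap, but the lowest control array and the highest LPS array lay close together. The ratio of the unscaled means was 0.711, and the scaled log2 change was -2.73 (SE 0.14, limma adjusted p = 2.75e-06), a 6.62-fold lower level. With the slide row as a block the changes were -2.73 for miR-466i-5p and -2.90 for miR-669n, and within row 1 they were -2.70 and -2.86.

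The size of these falls rests on the scaling. With the spiked-in RNAs they were -0.29 for miR-466i-5p (limma adjusted p = 0.000282) and -0.31 for miR-669n (limma adjusted p = 0.0283), and without scaling -0.48 and -0.50. Both members were lower and past the threshold in all 21 alternatives, normexp included, at -2.53 and -2.20. Relative to the median of miRNAs detected on all 6 arrays, miR-466i-5p stood at -3.47 and miR-669n at -3.49, a distance that a scaling of whole arrays cannot change. With quantile normalization it was -3.34 and -3.37, and with normexp -2.65 and -2.32. Thus signal per array was somewhat lower in LPS for both members while that of most miRNAs detected on all arrays was higher.

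**Figure D3:**
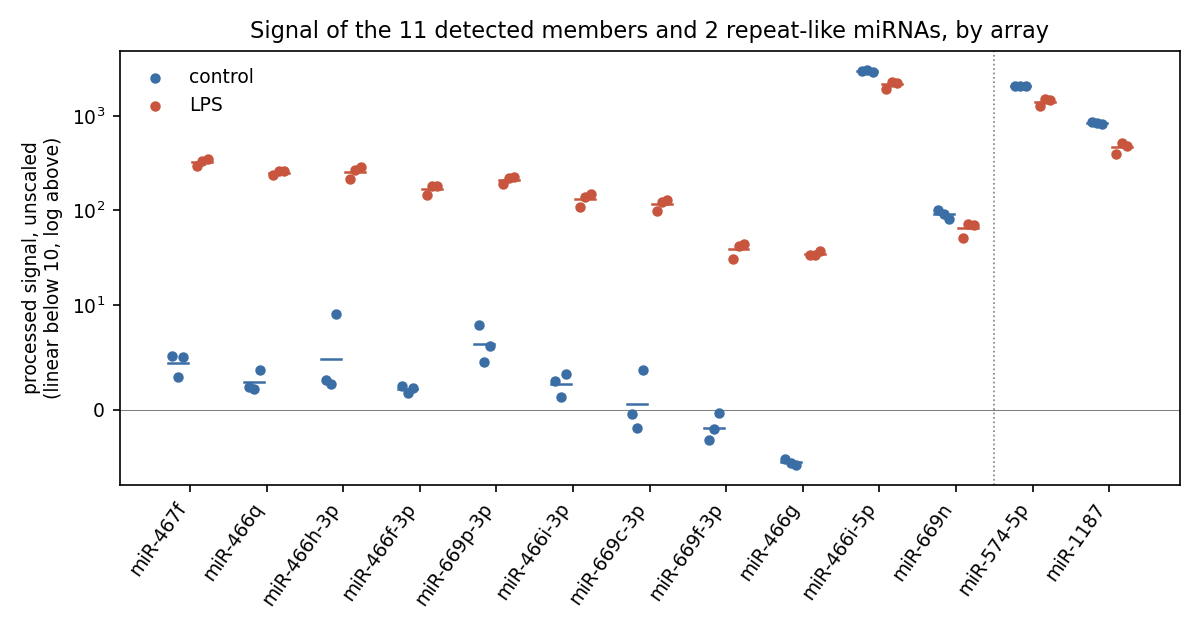
Unscaled processed signal (y axis, linear below 10 and logarithmic above) on each array of the 11 detected members and, right of the dotted line, miR-574-5p and miR-1187; points are arrays and bars are group means (n = 3). The 9 members on the left have control signals of at most 9.15 and LPS signals of 30.5 or more, whereas miR-466i-5p, miR-669n and the 2 other miRNAs are lower on every LPS array.

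**Figure D4:**
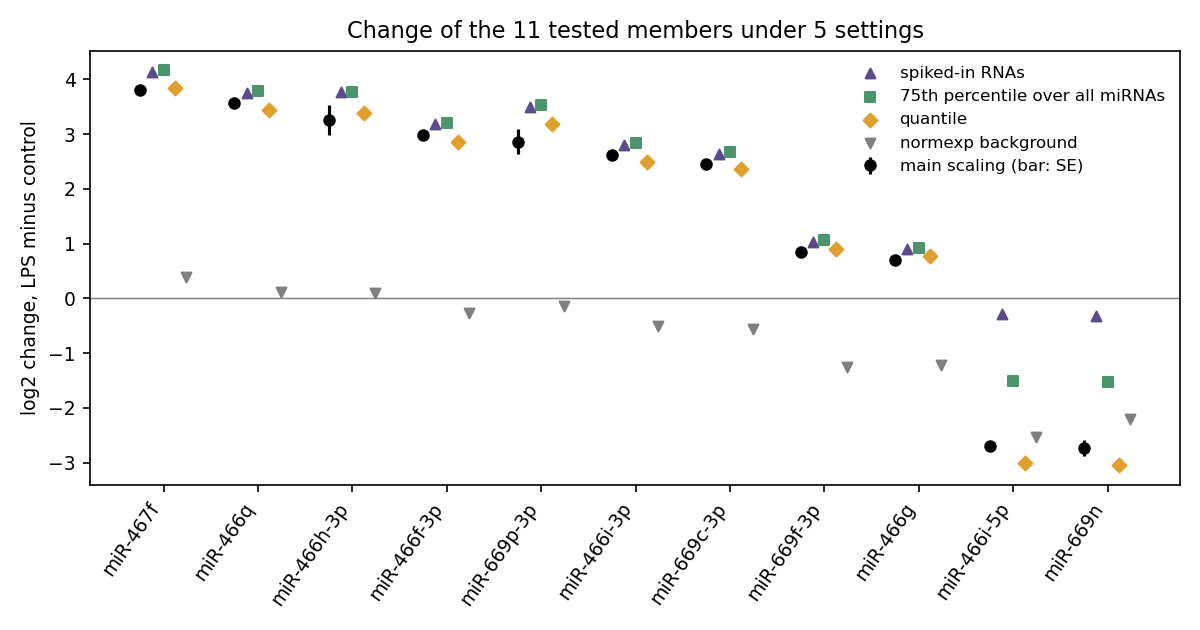
Log2 change, LPS minus control (y axis), of the 11 tested members under the main scaling (circles, bars are SE) and 4 other settings. The 2 members on the right stay below 0 in all 5 settings, from -3.04 to -0.29, and under normexp 6 of the 9 others fall below 0.

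The CA-probe miRNAs outside the families gave like values. The unscaled signal of miR-574-5p was 2085, 2079 and 2062 in control and 1269, 1503 and 1476 in LPS, with no overlap. Its log2 change was -2.78 (SE 0.070, limma adjusted p = 9.14e-08). The unscaled signal of miR-1187 was 853, 835 and 818 in control and 395, 522 and 486 in LPS, and its log2 change was -3.07 (SE 0.090, limma adjusted p = 1.54e-07).

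Of the 7 miRNAs outside the families with a CA run of 8 or more in a probe, 4 were detected, all on all 6 arrays. Besides miR-574-5p and miR-1187 these were miR-3082-5p, at -2.79, and miR-32-3p, at -2.86, both chosen after their values were seen. The last was well above background on no LPS array. The 6 detected miRNAs with such CA runs, in and outside the families, thus lay between -3.07 and -2.70. Other miRNAs without such a run lay in this range too, such as miR-5113 at -3.05 and miR-3095-3p at -2.75. Over all tested miRNAs 26.7% were called lower. All 6 CA-run miRNAs were detected on all 6 arrays, and of the 198 such miRNAs, tested alone, 77 were called lower. The count of 6 is small, the runs and the miRNAs named were chosen after the values were seen, and no test was made of it.

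A wider class of repeat, an alternation of any purine and pyrimidine over 10 or more bases, took in 54 members and 16 other miRNAs. It was read on the RefSeq mature for 6 of the members and 15 of the others, and on the longest probe for the rest. The lists thus rest on unlike sequences. Of the 54 members 10 were tested, 9 higher and 1 lower. Of the 16 others 7 were tested, 4 higher and 3 lower, with a median log2 change of 0.58 against 0.85 over all tested miRNAs. The other miRNAs of this wider class were thus called in both directions.

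The share of signal needs no scaling between arrays. The members took 3.07%, 2.70% and 2.73% of the summed signal of detected miRNAs on the control arrays and 0.554%, 0.581% and 0.581% on the LPS arrays. The groups lay far apart, at 2.83% ± 0.204 (SD, n = 3) against 0.572% ± 0.0155 (SD, n = 3), and the exact permutation test (two-sided) again gave p = 0.1. Nearly all of the control share was miR-466i-5p, at 2.75% ± 0.191 (SD, n = 3), which came to 0.328% ± 0.00902 (SD, n = 3) in LPS. The 9 LPS-only members together took 0.226% to 0.244% of the LPS signal. So while more members were detected in LPS, the families' share of the detected signal was smaller there.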

How the data were processed

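Exosomal miRNAs of 3 control and 3 LPS samples were read on one-colour arrays. The authors deposited linear intensity values, background-subtracted by Agilent Feature Extraction 10.7.1.1 per the file headers; the submitters' processing notes name 9.1. The labels name a Cy3 cRNA labelling kit. Their deposited value table, on a log2 scale with normalization not given in the sources at hand, served as an alternative.

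A probe's processed signal is the mean of its spots without control and outlier spots, and a miRNA was its brightest probe over the 6 arrays. Arrays were scaled by the 75th percentile over those miRNAs that the files flag as detected on all 6, to the geometric mean of these percentiles. Values were floored at 9.89 (3.31 on the log2 scale), the lowest scaled signal of a detected miRNA per array, taken as the median of the 6 arrays, and put on the log2 scale. The 412 miRNAs detected on all 3 arrays of a group were fitted with limma 3.58.1 in R 4.3.3, with Benjamini-Hochberg adjustment over all 412 and a threshold of 0.05. A probe was well above background on an array where over 0.5 of its spots were flagged so. The fit was tested on simulated data.

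The members, lists and alternatives were chosen with earlier results of these data known. Named were the 12 brightest tested members, which took in all 11, the 5 highest and 5 lowest changes, the 5 largest bounds, members sharing a seed, arm or probe, miR-574-5p, miR-1187 and the marker miRNAs, and the exceptions noted. Gene places and mature sequences came from RefSeq tables of GRCm38.p6, in which 60 members had a gene; probe positions are mm9, from the files. Samples with the same replicate number did not deviate together (correlations -0.40, -0.22 and -0.28 over 198 miRNAs), so the numbers were not taken as pairs.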

Additional observations from a re-analysis of the deposited data

How the results depend on the processing

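The counts of 9 members higher and 2 lower were the same under the other scalings, the mean over probes, the gene total signal, the authors' value table, no floor, slide row as a block, row 1 alone, with the replicate number as a replicate block (9 higher, 2 lower), and without any one array. Normexp background correction gave 1 higher and 7 lower, against 113 higher and 283 lower of all 412 tested miRNAs. Testing only miRNAs detected on all 6 arrays left 0 higher and 2 lower, since no LPS-only member is then tested. Of the 198 miRNAs then tested, 115 were higher and 77 lower. With no filter 9 members were higher and 19 lower, against 255 and 269 of all 1881 miRNAs. Undetected members are then tested too, at the floor in LPS and at or above it in control. Requiring signal well above background gave 7 higher and 2 lower, against 170 and 84 of the 356 miRNAs then tested.

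Of the values of single members under an alternative, 212 kept their direction and side of the threshold, 2 kept their direction and lost the call (miR-466h-3p and miR-466q, under normexp) and 6 changed sign, all under normexp: miR-466f-3p to -0.26, miR-466g to -1.22, miR-466i-3p to -0.51, miR-669c-3p to -0.56, miR-669f-3p to -1.25 and miR-669p-3p to -0.14, the last not past the threshold. The cause was not tested.

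The difference in detected members was 8 with signal well above background. The difference in signal share, -2.26 percentage points, ran from -2.96 (mean over probes) to -1.92 (normexp), and from -2.32 to -2.14 without any one array. Counting members with identical probes once was not run, since none share a probe. Control signals near 0 limit the LPS-only members to bounds.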
